A study of Polistes metricus with 16 samples.

Results

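The 150 transcripts described here stood apart in the brains of foundresses trained to faces, while foundresses trained to patterns and workers lay close together. They were chosen by the values themselves. All identifiers with at least 10 counts in each of the 16 wasps were examined, and counts were scaled by the total of each library to CPM, the usual unit for sequencing libraries. An identifier was kept where all 4 face-trained foundresses lay above the highest, or all 4 below the lowest, of the other 12 wasps. The means of the pattern-trained foundresses and of the 8 workers also had to be alike, the larger at most 25% above the smaller. Of 127674 identifiers, 43848 had enough counts and 241 of these met every condition, which is 0.55% of them. The 150 with the largest ratio of mean CPM, face-trained foundresses over the other 12 wasps, were taken. In 62 of them the face-trained foundresses were higher, and in 88 they were lower. Among all 43848 identifiers, 0.333% had the face-trained foundresses above the other 12 wasps and 0.312% below. This separation, and the likeness of pattern-trained foundresses and workers, is what chose the transcripts, so both are given as a description and no test of either is reported.

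All 16 wasps were adult females of Polistes metricus, a paper wasp, and each gave 1 library from its own brain. The first group held 4 foundresses (overwintered queens that start nests) trained to faces of Polistes fuscatus and collected in June. The other groups were 4 foundresses trained to simple patterns and collected in May, 4 workers kept on nests of P. fuscatus (allospecific), and 4 workers kept on nests of their own species (conspecific). Neither nest was the worker's birth nest, the workers had at least a week on it, and both worker groups were trained to P. fuscatus faces. Collection of the workers fell in July for 7 of them and in June for MW21. Every wasp went through 40 trials in a T-maze with negative reinforcement and was frozen 30 minutes after the last. Training to faces and the foundress caste meet only in the first group. Month, stimulus and caste cannot be told apart there, and no untrained wasps were analysed.

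P. fuscatus is known for telling nest mates apart by their variable faces, an ability that P. metricus is not known to use in its own colonies. In insects the mushroom bodies of the brain take part in visual and olfactory learning, and changes in transcription within and after training accompany the formation of lasting memory. Caste can also go with differences in brain transcription in social wasps. In RNA from whole brains, fewer cells of a type and less RNA per cell cannot be told apart. The identifiers carry no gene names in the sources used here, so no function can be given to any transcript, and the brain origin of the libraries could not be checked with markers.

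Library totals ran from 17289375 to 21822598 counts in face-trained foundresses and from 14949149 to 22832434 in the other 12 wasps. A set of 143 abundant transcripts, defined by a correlation above 0.9 with the most abundant identifier, took up 7.93% ± 1.53 of a library in face-trained foundresses and 13.3% ± 3.34 in pattern-trained foundresses (SD, n = 4 each). In workers its share was 5.64% ± 3.55 with allospecific nests and 9.19% ± 7.16 with conspecific nests (SD, n = 4 each). Its extremes were 2.18% in MW41 and 19.2% in MW21. A larger share of these transcripts lowers the CPM of every other transcript in that library. None of the 150 transcripts belonged to that set (0 of 143). The set was drawn from 55226 transcripts, so small a part of them that this 0 says little about the 150.

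Shifts were modest in size. The 62 higher transcripts had a median ratio of 1.53-fold in face-trained foundresses over the other 12 wasps, with a range of 1.38-fold to 2.17-fold. The 88 lower transcripts had a median ratio of 0.649, with a range of 0.492 to 0.725. Only 3 of the 150 reached a log2 ratio of 1 in size, 2 of them higher and 1 lower. The last transcript taken had a log2 ratio of 0.46, and the first one left out had -0.46. At the limit on the ratio of pattern-trained foundresses to workers, the larger mean was 24.3% above the smaller for the last identifier inside and 25.2% for the first outside.

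The empty space between face-trained foundresses and the nearest other wasp was narrow. Its median was 4.77% of the lower of both bounding CPM values, and it ran from 0.0144% to 27.6%. In 77 of the 150 transcripts it was under 5%. The counts behind these values were small for many transcripts. The lowest count in any wasp was 11 to 10610 per transcript, with a median of 70.5. Averaged over all wasps, the 62 higher transcripts had a median of 11.03 CPM, the 88 lower ones 5.31 CPM, and all 43848 identifiers with enough counts 7.99 CPM. CPM is not divided by transcript length, so these figures describe the depth behind the values and not molecules per cell.

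**Figure D1:**
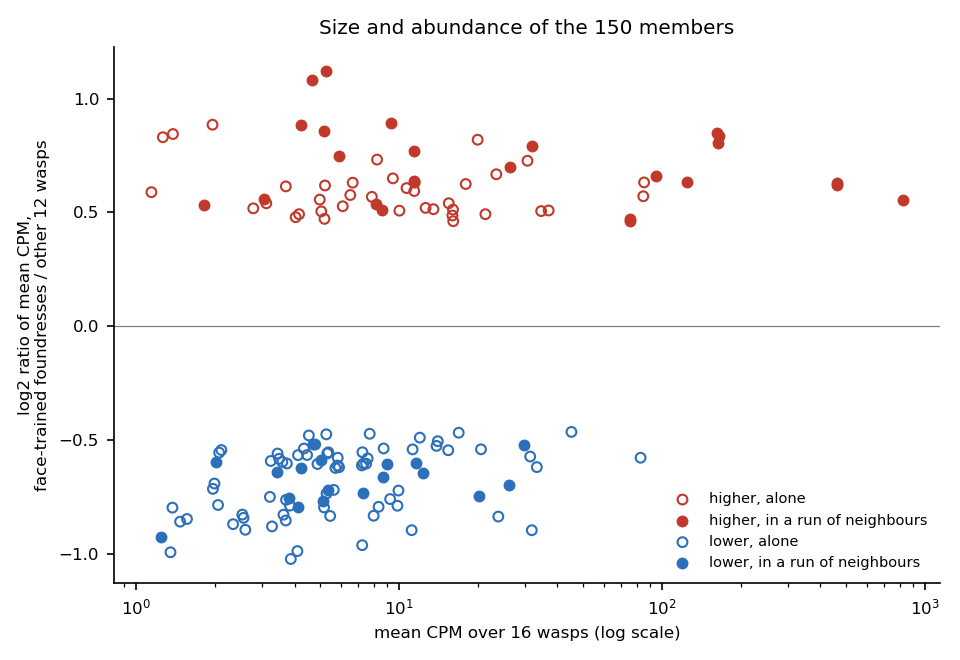
Log2 ratio of mean CPM, face-trained foundresses over the other 12 wasps, against mean CPM over all 16 wasps on a log scale, 1 point per transcript. Filled points belong to runs of neighbouring identifiers. The 7 transcripts above 100 CPM are all higher in face-trained foundresses, and every point lies beyond 0.46 in size because the transcripts were ranked on this axis.

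PmetTSAr2.0-071502 had the largest ratio of the higher transcripts. Its levels in the face-trained foundresses M30, M67, M79 and M91 were 11.9, 8.56, 6.78 and 8.21 CPM. In the pattern-trained foundresses M1, M15, M4 and M5 they were 3.81, 5.23, 4.22 and 4.91 CPM. The workers MW30, MW32, MW41 and MW47 from allospecific nests had 5.46, 2.64, 3.40 and 4.69 CPM, and MW21, MW25, MW40 and MW42 from conspecific nests had 4.18, 3.60, 2.88 and 3.88 CPM. M30 was the highest wasp, and M79, the lowest of the face-trained foundresses, lay 24.2% above MW30, the highest of the other wasps. The mean was 8.85 ± 2.15 CPM in face-trained foundresses (SD, n = 4) and 4.07 ± 0.885 CPM in the other 12 wasps (SD, n = 12), a log2 ratio of 1.12. Counts ran from 43 to 259 per library.

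The largest counts among the higher transcripts belonged to PmetTSAr2.0-085749. It stood at 1131, 1041, 1227 and 924 CPM in M30, M67, M79 and M91. It stood at 851, 821, 769 and 663 CPM in the pattern-trained M1, M15, M4 and M5. Workers from allospecific nests had 763, 682, 714 and 837 CPM, and workers from conspecific nests 616, 694, 709.7 and 715 CPM, in the order of wasps given above. Here M79 was highest and M91 lowest of the face-trained foundresses, and M91 lay 8.67% above M1. The means were 1081 ± 129 CPM in face-trained foundresses (SD, n = 4) and 736 ± 72.9 CPM in the other 12 (SD, n = 12), a log2 ratio of 0.55. The separation depended on how libraries were scaled. With trimmed-mean (TMM) factors, which discount the most abundant transcripts, M91 stood at 932 CPM and M1 at 943 CPM, so that the groups overlapped.

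Among the lower transcripts, PmetTSAr2.0-076183 had the largest ratio. It was at 2.06, 2.59, 2.86 and 1.21 CPM in M30, M67, M79 and M91. In the pattern-trained foundresses it was at 3.86, 3.72, 4.11 and 4.20 CPM. Workers from allospecific nests had 3.31, 5.99, 3.46 and 3.91 CPM, and workers from conspecific nests had 6.60, 4.35, 5.95 and 3.77 CPM. Workers were spread far more widely than pattern-trained foundresses, from 3.31 CPM in MW30 to 6.60 CPM in MW21. The mean was 2.18 ± 0.726 CPM in face-trained foundresses (SD, n = 4) and 4.44 ± 1.102 CPM in the other 12 wasps (SD, n = 12), a log2 ratio of -1.02. These levels rest on 21 to 123 counts per library. Without M91, the lowest wasp, the log2 ratio was -0.82.

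PmetTSAr2.0-052422 had the largest counts of the lower transcripts, with 1085 to 2246 per library. Its levels were 52.4, 63.7, 62.9 and 62.8 CPM in M30, M67, M79 and M91, of which the last 3 were nearly equal. Pattern-trained foundresses had 75.7, 64.6, 102 and 98.4 CPM. Workers from allospecific nests had 106, 74.5, 83.3 and 89.8 CPM, and those from conspecific nests 83.4, 108, 109.8 and 88.4 CPM. The pattern-trained M15 lay 1.37% above M67, the narrowest gap of the 4 transcripts described one by one. Means were 60.5 ± 5.37 CPM in face-trained foundresses (SD, n = 4) and 90.2 ± 14.6 CPM in the other 12 (SD, n = 12), a log2 ratio of -0.58.

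**Figure D2:**
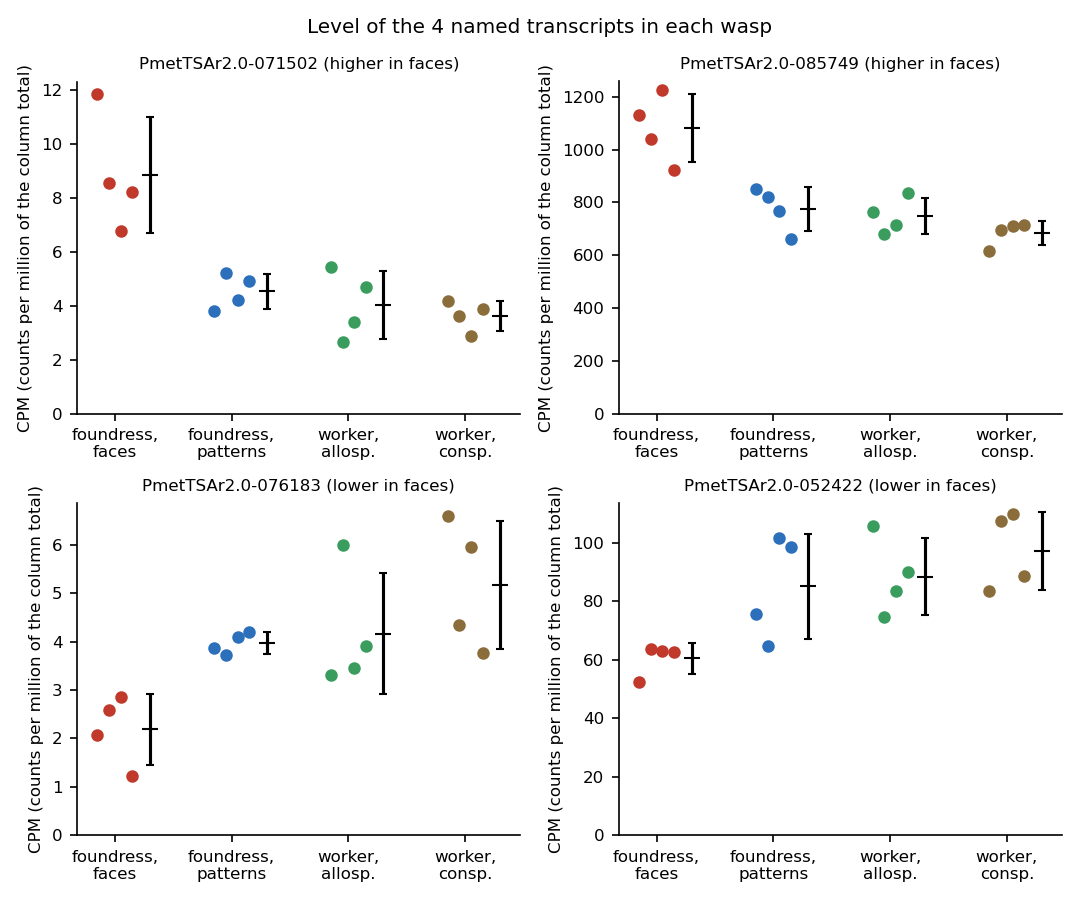
CPM of 4 transcripts in each wasp, by group, with the mean and SD of each group of 4 at its right. Both upper panels show the face-trained foundresses above all other wasps and both lower panels show them below, with gaps of 24.2% for PmetTSAr2.0-071502, 8.67% for PmetTSAr2.0-085749, 15.8% for PmetTSAr2.0-076183 and 1.37% for PmetTSAr2.0-052422.

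Many of the 150 identifiers were neighbours in the numbering, and reads may be shared between them. Identifiers at most 3 apart with the same direction were joined into runs. The 150 fell into 124 runs, of which 46 were higher and 78 lower. A single identifier made up 108 of them, and the other 16 held 42 transcripts in 9 pairs, 4 runs of 3 and 3 runs of 4. Pairs within these 16 runs were correlated by log2 CPM over the 16 wasps, after subtracting group means. The median of the run medians was 0.78. Single pairs spanned -0.07 to 0.99, so some neighbours varied almost as one and others did not. The number of separate genes among the 150 cannot be given from these files.

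The 7 transcripts above 100 CPM, all of them higher in face-trained foundresses, came from only 3 runs. They made up 71.6% of the summed CPM of the 62 higher transcripts in face-trained foundresses and 70.8% of it in the other 12 wasps. The first of these runs held 3 transcripts with mean levels of 162 to 164 CPM and pairwise correlations of 0.99 within groups, which makes them uncertain as separate transcripts. Their mean was 301, 220.0, 229 and 223 CPM in M30, M67, M79 and M91. It was 93.2, 165, 199 and 139.9 CPM in M1, M15, M4 and M5, so that pattern-trained foundresses alone covered more than a 2-fold range. It was 145, 136, 155 and 118 CPM in MW30, MW32, MW41 and MW47, and 96.4, 90.8, 153 and 150.4 CPM in MW21, MW25, MW40 and MW42.

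A second run held 4 transcripts, at mean levels of 462, 461, 94.8 and 32.1 CPM. The mean of the 2 above 100 CPM was 708, 608, 586 and 606 CPM in M30, M67, M79 and M91, and the highest of the other 12 wasps, M4, had 492 CPM. The remaining pattern-trained foundresses M1, M15 and M5 had 403, 479 and 372 CPM. The 8 workers lay between 372 CPM in MW32 and 414 CPM in MW47, a tighter cluster than either foundress group. The third run was that of PmetTSAr2.0-085749, joined by a transcript with a mean of 125 CPM and another with 26.3 CPM. PmetTSAr2.0-071502 likewise lay in a run, of 4 transcripts with mean levels of 4.23 to 5.91 CPM and log2 ratios of 0.75 to 1.12, which held the transcripts ranked 1 and 2 in the whole set. PmetTSAr2.0-076183 and PmetTSAr2.0-052422 stood alone.

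**Figure D3:**
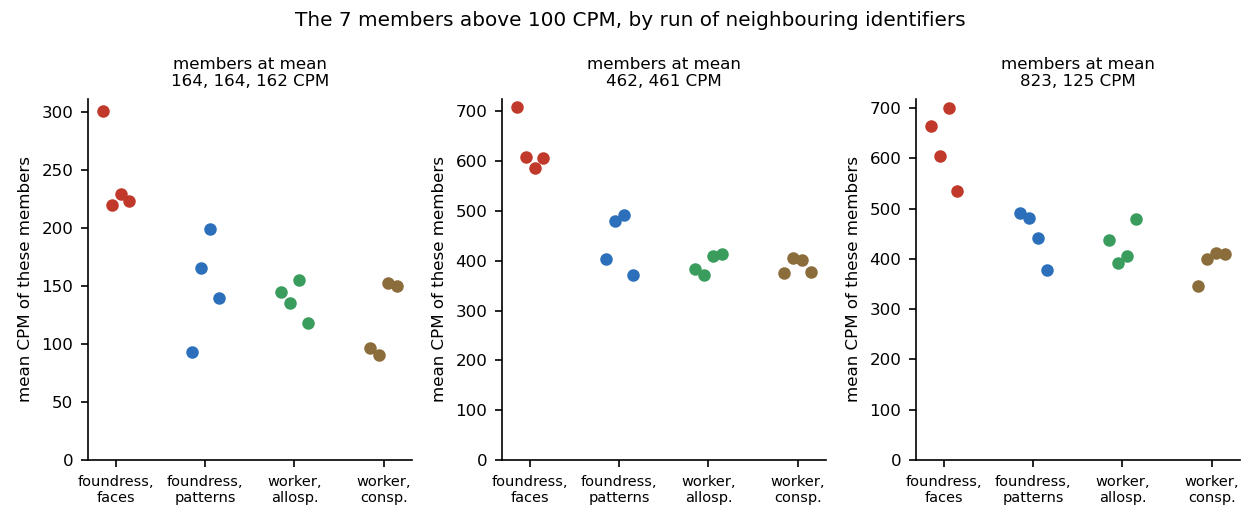
Mean CPM in each wasp of the 7 transcripts above 100 CPM, in 1 panel for each of the 3 runs of neighbouring identifiers, by group. In the left panel M30 stands at 301 CPM and the other face-trained foundresses at 220.0 to 229 CPM, and in the middle panel the face-trained foundresses stand at 586 to 708 CPM.

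Summed over the 62 higher transcripts, M30, M67, M79 and M91 had 5199, 4251, 4530.1 and 4116 CPM. The same sum averaged 3110 ± 334 CPM in pattern-trained foundresses, 2932 ± 125 CPM in workers from allospecific nests and 2720 ± 218 CPM in workers from conspecific nests (SD, n = 4 each). Over the 88 lower transcripts the sum was 461, 609.7, 595 and 579 CPM in the same face-trained foundresses. It averaged 817 ± 75.9 CPM in pattern-trained foundresses, 849 ± 39.1 CPM in workers from allospecific nests and 951 ± 35.5 CPM in workers from conspecific nests (SD, n = 4 each). M30 was the farthest from the other groups in both sums.

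To place each wasp on a common scale, its log2 CPM was expressed for every transcript as a position, where 0 is the mean of the other 12 wasps and 1 the mean of the face-trained foundresses. The median position over the 150 transcripts was 1.40 for M30, 0.795 for M67, 0.875 for M79 and 0.903 for M91. M30 was the outermost of the face-trained foundresses in 113 of the 150 transcripts, 48 higher and 65 lower ones. M67 was the innermost most often, in 64. Leaving out M30 lowered the median size of the log2 ratio to 0.56, against 0.62 with all 4, and left 0 transcripts with a log2 ratio of 1 in size.

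Among the other 12 wasps the positions were uneven. Pattern-trained foundresses had median positions of 0.228 for M1, 0.248 for M15, 0.109 for M4 and -0.0570 for M5. Workers from allospecific nests had 0.237 for MW30, -0.109 for MW32, 0.153 for MW41 and 0.0128 for MW47. Workers from conspecific nests were all below 0, with -0.301 for MW21, -0.0852 for MW25, -0.0292 for MW40 and -0.232 for MW42. Taking the other 12 wasps one at a time, M15 was the nearest to the face-trained foundresses in 29 transcripts, MW30 in 25 and M1 in 24. MW32 was the nearest in 2. By group means, the nearest group was pattern-trained foundresses for 89 transcripts, allospecific-nest workers for 52 and conspecific-nest workers for 9. With TMM scaling these counts were 83, 59 and 8. The positions and counts come from values that the choice used, and no share over all identifiers stands beside them. They describe the chosen transcripts and do not show which group is most like the face-trained foundresses.

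MW21 is the 1 worker that shares the month of collection with the face-trained foundresses. Over the 150 transcripts it lay farthest from them of all 12 other wasps, at a median position of -0.301, and at -0.327 with TMM scaling. MW21 was above 0 in 44 transcripts and below 0 in 106. The choice kept only transcripts in which MW21, like every other wasp, lay outside the range of the face-trained foundresses. Transcripts at like levels in MW21 and these foundresses were thus left out beforehand, so its positions cannot speak to the month of collection. MW21 also had the largest share of the abundant set, 19.2%, and the lowest TMM factor of all libraries, 0.853. By column totals its median position was -0.545 over the higher and -0.119 over the lower transcripts, and with TMM scaling -0.190 over the higher and -0.448 over the lower. The part of the abundant set in these positions was not tested.

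**Figure D4:**
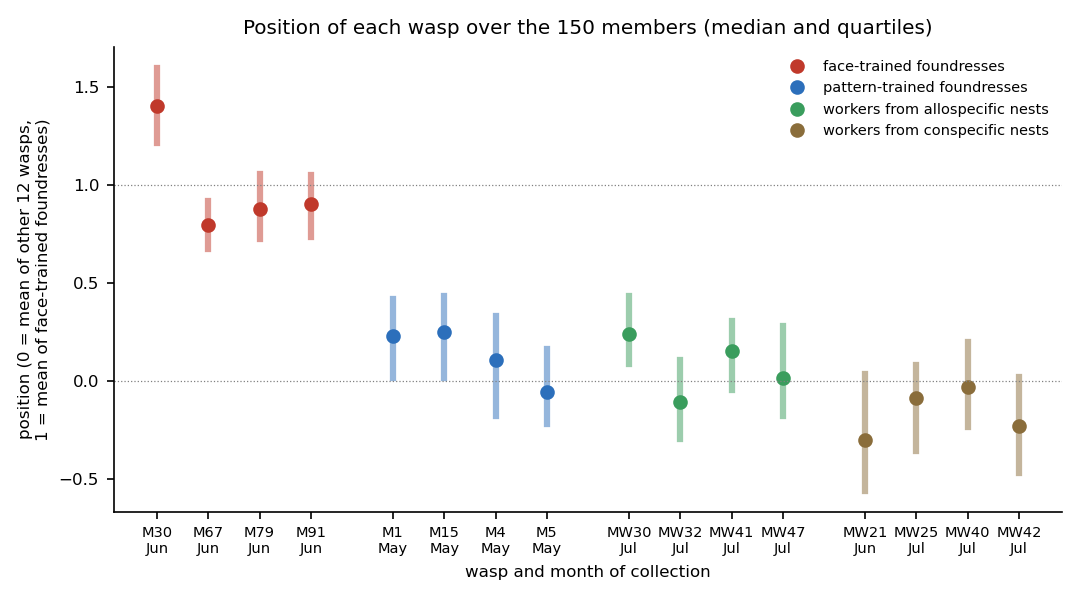
Position of each wasp over the 150 transcripts, as the median (point) and the quartiles (bar), by group and with the month of collection. M30 lies at 1.40, the other face-trained foundresses lie at 0.795 to 0.903, and the workers from conspecific nests all lie below 0, MW21 lowest at -0.301.

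The transcripts were then compared between workers from allospecific and conspecific nests, which asks whether the nest a worker lived on goes with their level. The choice of the transcripts used the levels of all workers, by column totals, but not their nests. It is thus not wholly free of the levels compared here. The fits without 1 worker kept the list chosen with all of them. Counts were tested in 1 fit of all 16 wasps by edgeR's quasi-likelihood test, with Benjamini-Hochberg adjustment over all 55226 transcripts tested. A transcript is called where its adjusted p is under 0.05. None of the 150 was called, and the background was 0 calls in 55226 (0%). At an unadjusted p under 0.05 there were 8 of the 150, 5.33%, beside 2.29% of all transcripts tested. That number rested on single workers. It was 2 without MW21, 3 without MW30, 3 without MW41, 12 without MW25, 18 without MW40 and 22 without MW32, and 8 without MW47 or MW42. DESeq2 called 0 of the 150, beside 1 of 55201 transcripts (0.00181%), and had 8 at an unadjusted p under 0.05, beside 2.07% of all. Limma-voom called 0 of the 150, beside 0 of 55226, and had 7 at an unadjusted p under 0.05, beside 2.34% of all.

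The differences between nests, though small, leaned one way. Of the 88 transcripts lower in face-trained foundresses, 79 had a lower estimate in workers from allospecific than from conspecific nests. Their median log2 difference, allospecific minus conspecific, was -0.24, with a median standard error of 0.18. Of the 62 transcripts higher in face-trained foundresses, 43 had a higher estimate in workers from allospecific nests, and the median log2 difference was 0.08 with a median standard error of 0.17. Over all transcripts tested the median was 0.00 and 49.3% of the estimates were positive. In both directions the workers from allospecific nests thus lay on the side of the face-trained foundresses. Without 1 worker at a time, the number of lower transcripts with a lower estimate ran from 75 to 83 and their median difference from -0.27 to -0.17. The number of higher transcripts with a higher estimate ran from 36 to 49, and their median difference from 0.05 without MW47 to 0.09 without MW32. The share of the abundant set averaged 5.64% ± 3.55 in workers from allospecific nests and 9.19% ± 7.16 in workers from conspecific nests (SD, n = 4 each), ranges that overlapped, and within groups the lower transcripts had a median correlation of 0.38 with that share under TMM scaling. Without MW21 the mean share in workers from conspecific nests was 5.84% ± 3.11 (SD, n = 3), against 19.2% in MW21 itself. Without MW21, 77 of the 88 lower transcripts had a lower estimate, with a median of -0.17, and 45 of the 62 higher ones a higher estimate, with a median of 0.08. The part of the abundant set in the nest differences was not tested.

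These counts are no measure of probability, since the 150 transcripts share their libraries and many vary together. The worker groups did not overlap in 5 of the 150 transcripts (3.33%), all of them lower in face-trained foundresses and lower in workers from allospecific nests, beside 1.62% of all transcripts tested. The lowest unadjusted p belonged to the transcript ranked 14, whose mean was 2.87 ± 0.393 CPM in workers of allospecific nests and 4.38 ± 0.595 CPM in those of conspecific nests (SD, n = 4 each). Its log2 difference was -0.69 ± 0.19 (SE), and its edgeR adjusted p was 1.00. The transcript ranked 48 averaged 5.02 ± 0.176 CPM in workers of allospecific nests and 7.10 ± 0.224 CPM in those of conspecific nests (SD, n = 4 each), with an edgeR adjusted p of 1.00. Both were picked after their values were seen.

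For the 4 transcripts described one by one, the nest difference stayed within about 1.5 standard errors. By edgeR, allospecific minus conspecific, PmetTSAr2.0-071502 differed by 0.07 ± 0.23 (SE) on the log2 scale and PmetTSAr2.0-085749 by 0.06 ± 0.12 (SE). PmetTSAr2.0-076183 differed by -0.39 ± 0.26 (SE) and PmetTSAr2.0-052422 by -0.21 ± 0.14 (SE), and the edgeR adjusted p was 1.00 for each of the 4.

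**Figure D5:**
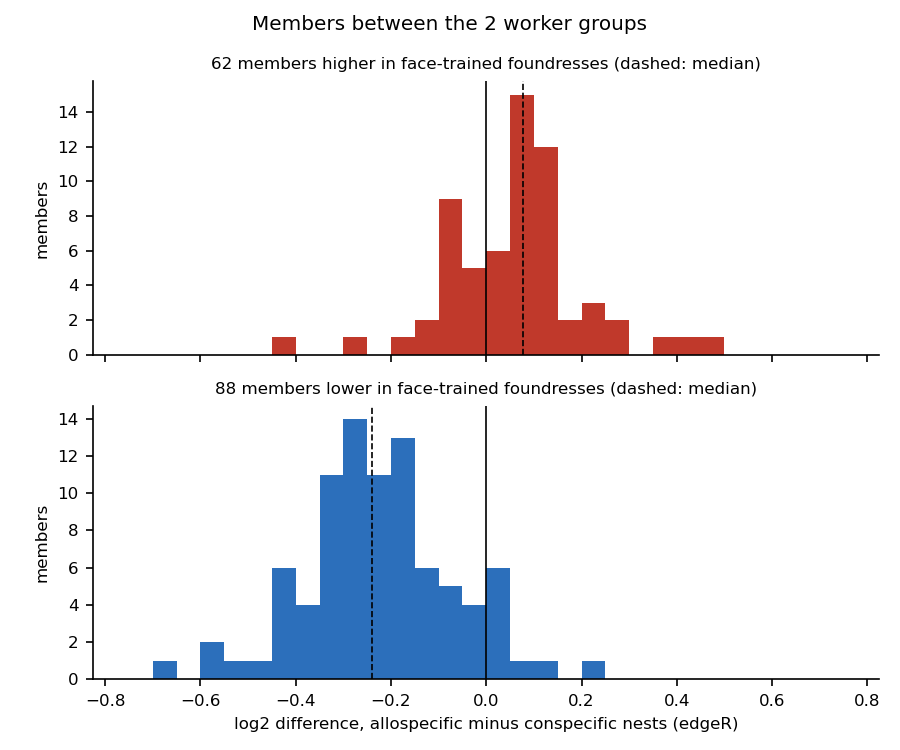
Number of transcripts by log2 difference, allospecific minus conspecific nests, from the edgeR fit, for the 62 transcripts higher (top) and the 88 lower (bottom) in face-trained foundresses. Dashed lines mark the medians, 0.08 in the top panel and -0.24 in the bottom panel, and 79 of the 88 lower transcripts lie left of 0.

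Variation of the transcripts inside the groups was compared between pairs of them. Correlations were taken between log2 CPM values with TMM scaling after subtracting group means, over 16 wasps, and leaving out pairs with identifiers 10 or fewer apart. The median size of the correlation was 0.28 over 11127 pairs, beside 0.24 over all pairs of tested transcripts. With its sign, the median was 0.26 for pairs of the same direction, of which 77.0% were above 0, and -0.19 for pairs of opposite direction, beside -0.01 over all pairs of tested transcripts. In the 12 wasps other than face-trained foundresses, the median size was 0.27 both for the 150 and for all tested transcripts, and the medians for same and opposite direction were 0.18 and -0.08. All of these values share the same libraries and their depth. The choice also shaped them, since it bounded the level of every wasp and ranked by the mean of the face-trained foundresses. M30 was the outermost of these in 113 of the 150 transcripts. This favours positive correlations within a direction and negative ones between directions, so the signed medians are a description only. Correlated with the log2 share of the abundant set within groups, the 62 higher transcripts had a median of -0.17, the 88 lower ones 0.38, and all tested transcripts -0.03, all with TMM scaling. By column totals, the scaling that chose the transcripts, the medians were -0.49 for the higher and 0.06 for the lower ones. No median over all tested transcripts by column totals stands beside them. Under this scaling a larger share of the abundant set lowers the CPM of every other transcript. The column-total medians thus cannot show how the chosen transcripts differ from transcripts in general. The part of the abundant set in the co-variation was not tested.

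The same conditions with both foundress groups exchanged gave a smaller counterpart. Face-trained foundresses stood apart from the other 12 wasps in 283 identifiers (0.645%), and pattern-trained foundresses stood apart from their other 12 wasps in 138 (0.315%). Every condition was met by 241 for face-trained foundresses, of which 123 (51.0%) were higher and 118 lower. In the counterpart 120 met them (0.274%), of which 32 (26.7%) were higher and 88 lower in pattern-trained foundresses. None of the transcripts taken for their largest ratios was in the counterpart (0 shared). Their ratios were too large to meet the counterpart's limit between face-trained foundresses and workers. This 0 thus follows from the construction and shows nothing about the wasps. Sharing between all 241 and the counterpart is not given here. The difference between the counts of 241 and 120 was not tested, because both rest on the same 16 libraries. Both sets were counted here by column totals, and the abundant set took its largest mean share, 13.3%, in pattern-trained foundresses. Of the identifiers that met every condition for face-trained foundresses, 43.7% were higher with TMM factors and 55.7% with DESeq2 median-of-ratios factors. With the abundant set left out of the totals 44.6% were higher, so the share moved either way with the scaling. The part of the abundant set in the directions of the counterpart was not tested.

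How far the set is fixed by the scaling was examined last. With TMM factors, 102 of the 150 still met every condition, 38 of the 62 higher and 64 of the 88 lower. With DESeq2 median-of-ratios factors 94 did, and with the 143 abundant transcripts left out of the totals, a setting chosen after seeing the data, 90 did. Under all 3 of these scalings 87 transcripts met them, 30 higher and 57 lower. Nearly all of the losses came from overlap with another wasp, 46 of 48 with TMM factors. All 150 kept the sign of their log2 ratio under each of these 3 scalings, and the smallest ratio in size was 0.43. The ranking had taken only ratios of 0.46 or more in size, so the kept signs are no separate support. PmetTSAr2.0-076183 and PmetTSAr2.0-052422 met every condition under all 3, PmetTSAr2.0-071502 under both TMM and DESeq2 factors, and PmetTSAr2.0-085749 only without the abundant transcripts.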

How the data were processed

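The deposited file is a table of raw counts, all of them whole numbers, per transcript identifier, with 1 column for each of the 16 wasps. Per the submitters' processing notes, Trimmomatic 0.32, Bowtie2 and eXpress were used. The sources used here do not give the transcript set, the strand setting, how shared reads were treated, or whether estimates were rounded. Per the labels' protocols, libraries came from 1 µg of total RNA of single brains, made with an Illumina TruSeq RNA kit. Columns were matched to samples by the wasp number in both names.

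CPM used column totals. Tests used edgeR 4.0.16 in R 4.3.3 (quasi-likelihood F test, robust, TMM factors, filterByExpr, 1 mean per group, 12 residual degrees of freedom), with limma 3.58.1 and DESeq2 1.42.0 as alternatives. All 150 members passed that filter. Log2 CPM for correlations used TMM factors and a prior count of 2. The fit and the selection were tested on simulated data. The members, the sets and the tests were chosen with earlier results of these data known. The transcripts described one by one are, in each direction, that with the largest ratio and that with the highest mean CPM more than 10 identifiers away.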

Additional observations from a re-analysis of the deposited data

Results flagged for a closer look

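Within groups of 4 wasps, 28 sets of values were examined for a wasp far from the other 3, and 2 stood apart, where chance marks about 1 in 20. PmetTSAr2.0-052422 was at 52.4 CPM in M30, while the other face-trained foundresses lay between 62.8 and 63.7 CPM. The summed CPM of the 62 higher transcripts was 2746 in MW32, while the other workers from allospecific nests lay between 2979 and 3005 CPM.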

How the results depend on the processing

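The number of identifiers that met every condition was 241. It was 144 where pattern-trained foundresses and workers had to lie within 1.1-fold, and 231 to 287 under the other 8 settings. These were TMM factors, DESeq2 factors, minimum counts of 5, 20 or none, limits of 1.5-fold or none, and totals without the abundant set. The identifiers changed more than their number. Of the 241, 146 were among the 286 with TMM factors and 141 among the 287 with DESeq2 factors. Without the abundant set in the totals, 138 of them were among the 269 found. Leaving out 1 wasp gave 255 to 773, with 672 without M67, 773 without M79, 504 without M91 and 377 without MW30. Fewer wasps then have to separate, so larger counts follow from the construction. All 241 still met the conditions without any 1 of the face-trained foundresses, which also follows from the construction. The log2 ratios of the 4 transcripts described one by one kept their sign under every setting, which their selection on this ratio made likely. Ranges were 0.95 to 1.23 (PmetTSAr2.0-071502), 0.49 to 0.62 (PmetTSAr2.0-085749), -1.18 to -0.78 (PmetTSAr2.0-076183) and -0.61 to -0.50 (PmetTSAr2.0-052422). Between nests 0 of the 150 were called under all 13 settings tried, 8 of which left out 1 worker. The median difference over the 150 ran from -0.13 to -0.06 without 1 worker. No paired analysis was possible because the wasp numbers link no wasps between groups. With 4 wasps a group and a median lowest count of 70.5, small differences may not be detectable at this depth.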

Other observations

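Beyond the 150 transcripts, 91 met every condition with smaller ratios. Another 37 identifiers would have met them without the minimum of 10 counts, 24 of them higher and 13 lower in face-trained foundresses. A further 42 separated the face-trained foundresses from the other 12 wasps but lay outside the limit of 25% between pattern-trained foundresses and workers.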
